A study of Homo sapiens with 12 samples.

Results

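Of the 23106 gene symbols counted in RCC4 kidney cancer cells, 79 were chosen because their mRNA was higher after double knockdown of HIF1A and HIF2A than with control siRNA in each of 3 replicate pairs, while their average ratio to control siRNA stayed close to 1 with either siRNA alone. Levels were expressed as CPM, each count scaled to a library total of 1000000. A gene was selected on a mean of at least 2 CPM over the 3 double knockdown libraries, a log2 ratio of double knockdown to control siRNA of at least 0.4 in each pair after adding 0.5 CPM, and a mean log2 ratio from -0.25 to 0.25 for each of the single siRNAs. The CPM minimum was met by 11406 genes, of which 7719 also met both limits for the single siRNAs and 79 met every limit. With the sign of the double knockdown limit turned round, 51 genes were found. The values of all 12 libraries chose the 79 genes, so the levels and ratios given for them are a description and not a test. The word "only" could not be read from the means with a single siRNA, which the rule itself limits. The rule was also applied to 2 replicate pairs, and the genes so found were read in the pair left out. With pairs 1, 2 and 3 left out these were 137, 90 and 164 genes, which held 50, 33 and 52 of the 79. In the pair left out, the genes so found had median log2 ratios of 0.16 to 0.37 with either siRNA alone. The 79 genes are therefore called here by the rule and not by that word.

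RCC4 cells are an established line from a clear cell kidney cancer and lack working VHL, the protein that marks HIF-α subunits for degradation, so both subunits persist in oxygenated cells. Each HIF-α subunit pairs with HIF-1β and binds a short DNA word, the hypoxia response element. Genes activated from this word include those of glycolysis, pH control and angiogenesis, and the paper lists targets specific to HIF-1 and to HIF-2. Cells received pools of siRNA at 2 nM in total and were harvested 48 h after transfection. The conditions were 2 nM control siRNA, 1 nM HIF1A siRNA with 1 nM control siRNA, 1 nM HIF2A siRNA (against EPAS1, which encodes HIF-2α) with 1 nM control siRNA, and 1 nM HIF1A siRNA with 1 nM HIF2A siRNA (the double knockdown). The double knockdown thus held 0 nM control siRNA, and loss of both HIF-α subunits cannot be told apart from loss of the control pool. There were 3 replicates of each condition, which the study's methods describe as biological replicates, all of 1 cell line, and the libraries were made from polyA RNA.

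Total counts lay between 13263168 and 20451433 per library. HIF1A was at 119.8, 57.6 and 109 CPM with control siRNA, 15.2, 18.04 and 22.6 after HIF1A siRNA, 110.4, 114 and 135 after HIF2A siRNA and 24.5, 32.3 and 29.9 in the double knockdown, which left 12.7 to 31.3% of the paired control with HIF1A siRNA and 20.5 to 56.0% in the double knockdown. The highest of these shares came from replicate 2, whose control library was low in HIF1A. In the order of the replicates, EPAS1 was at 162, 137 and 168 CPM with control siRNA, at 103, 108 and 137 with HIF1A siRNA, at 9.13, 11.7 and 9.22 with HIF2A siRNA and at 8.66, 11.3 and 7.04 in the double knockdown, or 4.21 to 8.26% of the paired control in the double knockdown. The renal epithelial markers PAX8, PAX2, KRT8, KRT18, EPCAM and CDH16 were detected in every library (PAX8 at 197 to 319 CPM and CDH16, the kidney cadherin, at 15.4 to 64.5), whereas CDH1 stayed at or under 0.481 CPM. VIM, a mesenchymal marker, was at 2872 to 5382 CPM. Summed over 14 immune markers, the libraries held 47.6 to 65.0 CPM with control siRNA and 54.4 to 69.2 in the double knockdown, and over 11 endothelial markers 4.62 to 8.37 and 2.89 to 3.23. The part of these markers in the results was not tested. In these bulk libraries, more cells with an mRNA and more mRNA per cell cannot be told apart.

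The differences were modest. Across the 79 genes, the mean log2 ratio of double knockdown to control siRNA ran from 0.43 to 1.20 with a median of 0.59, against a median of 0.04 over the 11406 genes with the CPM minimum. A fold of 1.5 or more was reached by 43 of them and a fold of 2 or more by 2, SLC44A1 and TAGLN3. In the double knockdown they spanned 2.69 to 1467 CPM, and with control siRNA 15 were under 10 CPM and 20 at 100 CPM or more. All 79 passed the expression filter of the fit across genes. For double knockdown against control siRNA, edgeR's quasi-likelihood test (Benjamini-Hochberg adjusted, threshold 0.05) called 56 of the 79 higher, where 3.86% of the 13000 genes tested were called higher. Since this contrast chose the genes, nothing is read from that count. It was 3 without the pairing by replicate, 37 without control siRNA replicate 1, 27 without control siRNA replicate 3 and 31, 28 and 32 without double knockdown replicates 1, 2 and 3.

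The HIF word was looked for in the promoters of the 79 genes. RefSeq promoters (GRCh38.p14, 250 bases before the annotated start) were found for 62 of the 79 genes, 3 of them under a newer symbol, giving 84 promoters since some genes have several starts. The core of the hypoxia response element, ACGTG or GCGTG on either strand, was in 59.5% of the members' promoters, 56.0% of those of genes with the CPM minimum and 43.2% of all (50 of 84, 7573 of 13519 and 15172 of 35116). The GC box GGGCGG was in 63.1, 64.4 and 42.6%, the CCAAT box in 34.5, 33.3 and 32.0%, and the ETS core CCGGAA in 22.6, 23.7 and 14.5% of the same sets. The E-box CACGTG, which contains the HIF word, was in 6 of the 84 (7.14%, against 8.33% in expressed genes). The TATA box TATAAA was in 6 (7.14%, against 5.53%) and the CRE site TGACGTCA in 4 (4.76%, against 2.48%). The interferon response element was in 2 (2.38%, against 2.35%) and the AP-1 site TGANTCA in 2 (2.38%, against 4.31%). The E2F site TTTCGCGC or TTTGGCGC was in 1 (1.19%, against 1.5%). The median GC content was 64.4% in the members' promoters and 64.8% in those of expressed genes. The promoters of 5 leading genes of different roles are shown 5′ to 3′, without bases annotated as untranslated, with the HIF word in capitals, since they include genes with the word and genes without it.
SLC44A1 (GRCh38.p14, chr9:105244401-105244621, plus strand): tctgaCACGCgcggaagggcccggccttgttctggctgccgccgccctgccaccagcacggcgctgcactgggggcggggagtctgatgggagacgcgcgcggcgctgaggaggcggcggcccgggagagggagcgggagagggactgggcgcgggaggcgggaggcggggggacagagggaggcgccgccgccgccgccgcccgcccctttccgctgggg
NAB1 (GRCh38.p14, chr2:190648645-190648894, plus strand): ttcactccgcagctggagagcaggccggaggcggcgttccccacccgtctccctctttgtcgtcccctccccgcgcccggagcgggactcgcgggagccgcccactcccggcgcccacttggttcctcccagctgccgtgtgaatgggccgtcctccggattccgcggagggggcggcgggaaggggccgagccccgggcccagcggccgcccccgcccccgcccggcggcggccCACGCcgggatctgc
PSAT1 (GRCh38.p14, chr9:78296875-78297124, plus strand): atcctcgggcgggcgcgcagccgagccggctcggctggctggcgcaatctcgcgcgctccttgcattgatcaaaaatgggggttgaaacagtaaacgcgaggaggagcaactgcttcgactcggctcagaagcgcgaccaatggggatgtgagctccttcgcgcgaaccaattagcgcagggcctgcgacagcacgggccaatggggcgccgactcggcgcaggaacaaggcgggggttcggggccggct
SNHG16 (GRCh38.p14, chr17:76557514-76557763, plus strand): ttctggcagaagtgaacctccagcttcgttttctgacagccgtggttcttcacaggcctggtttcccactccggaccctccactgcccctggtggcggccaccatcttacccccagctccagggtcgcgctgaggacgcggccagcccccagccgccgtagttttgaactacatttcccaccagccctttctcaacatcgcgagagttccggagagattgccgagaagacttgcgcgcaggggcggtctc
RPS4X (GRCh38.p14, chrX:72277249-72277498, minus strand): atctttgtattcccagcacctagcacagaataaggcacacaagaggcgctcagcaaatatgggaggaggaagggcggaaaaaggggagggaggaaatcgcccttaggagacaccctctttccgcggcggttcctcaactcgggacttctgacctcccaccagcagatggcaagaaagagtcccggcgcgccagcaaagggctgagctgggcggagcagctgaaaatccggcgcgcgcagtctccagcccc
In the stretches shown, SLC44A1 held the word once, far upstream, and NAB1 once near the start, whereas PSAT1, SNHG16 and RPS4X held none. NAB1 has 3 promoters in the table, of which the one listed first is shown. A match is a description of letters and not of a bound site.

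Genes that carry nutrients and make metabolites held the largest difference. SLC44A1, a choline transporter of the plasma membrane and mitochondria, led the 79 genes by the smallest of its 3 ratios. SLC44A1 was at 24.6, 25.5 and 36.0 CPM with control siRNA, 23.1, 27.2 and 48.3 after HIF1A siRNA, 27.2, 26.3 and 47.4 after HIF2A siRNA and 55.2, 58.6 and 86.7 in the double knockdown. Every double knockdown library was above every other library, and replicate 3 was the highest in each condition. The log2 ratios to the paired control were 1.15, 1.19 and 1.26 in the double knockdown, with a mean of 1.20 ± 0.055 (SD, n = 3), a fold of 2.29. With HIF1A siRNA alone the mean was 0.14 ± 0.26 and with HIF2A siRNA alone 0.19 ± 0.18 (SD, n = 3). PSAT1 encodes the aminotransferase of serine synthesis. The double knockdown libraries held 86.9, 92.1 and 121 CPM of PSAT1, against 43.0, 57.2 and 71.3 with control siRNA, 51.1, 50.6 and 72.1 with HIF1A siRNA and 60.3, 52.4 and 89.4 with HIF2A siRNA. The lowest double knockdown library, replicate 1, lay just under HIF2A siRNA replicate 3, so the conditions overlapped, but within each pair the double knockdown was highest (mean log2 ratio to control 0.82 ± 0.17, SD, n = 3). The other 8 genes of this kind were the lactate and pyruvate transporter SLC16A7 (mean log2 ratio 0.74), the zinc importer SLC39A1 (0.55), the solute carrier SLC35F6 (0.56), the mitochondrial proteins SFXN4 (0.57) and C19orf52 (0.54, now TIMM29, of the protein import machinery), the methyltransferase-like COMTD1 (0.68), ALG14 (0.55) of N-glycan assembly and the xylose kinase FAM20B (0.60) of proteoglycan assembly. SLC16A7 was low, at 4.67 to 13.1 CPM with control siRNA.

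Transcription and chromatin regulators made up 12 of the 79 genes, and 6 of the 12 had all 3 double knockdown libraries above the 9 others, as had 1.47% of the genes with the CPM minimum. Since the rule asks for a difference from control siRNA in each pair, nothing is read from this count or from the like counts for the other groups. The groups were assigned among the 79 genes alone, so nothing is read from their sizes. HIPK2 is a nuclear kinase that phosphorylates p53 and transcriptional corepressors. In the order of the replicates, HIPK2 was at 126, 139 and 167 CPM with control siRNA, at 133, 151 and 161 with HIF1A siRNA, at 145, 179 and 157 with HIF2A siRNA and at 237, 248 and 270 in the double knockdown. The double knockdown libraries stood clear of the other 9, while the single siRNAs, at 133 to 179 CPM, overlapped with control siRNA, at 126 to 167. The mean log2 ratio was 0.81 ± 0.11 in the double knockdown (SD, n = 3), 0.052 ± 0.089 with HIF1A siRNA and 0.16 ± 0.23 with HIF2A siRNA. NAB1 encodes a corepressor of the EGR transcription factors. For NAB1, the control libraries held 17.5, 16.6 and 16.6 CPM, the HIF1A siRNA libraries 23.6, 17.3 and 19.1, the HIF2A siRNA libraries 21.0, 17.8 and 19.9 and the double knockdown libraries 33.8, 27.7 and 28.7. Here too the double knockdown libraries stood above the rest, with a mean log2 ratio of 0.81 ± 0.11 (SD, n = 3). KAT2A, a histone acetyltransferase, was at 49.9, 70.0 and 52.1 CPM with control siRNA and at 70.7, 112 and 79.7 in the double knockdown, and its means with the single siRNAs were close to control (-0.018 and 0.082 on the log2 scale). CREB3L2, a transcription factor released from the endoplasmic reticulum membrane, had ratios of 0.58, 0.62 and 0.66. ATF5, a stress-induced bZIP factor, had ratios of 0.55, 0.72 and 0.58, with 0.19 and 0.23 for the single siRNAs. The remaining 7 were the histone reader ING5 (0.80), the coactivator PPARGC1B (0.75), the LIM homeodomain factor ISL1 (0.71), the Mediator subunit MED26 (0.65), atrophin ATN1 (0.57) and the zinc finger factors RREB1 (0.54) and ZNF335 (0.50). PPARGC1B and ISL1 were under 10 CPM with control siRNA.

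**Figure D1:**
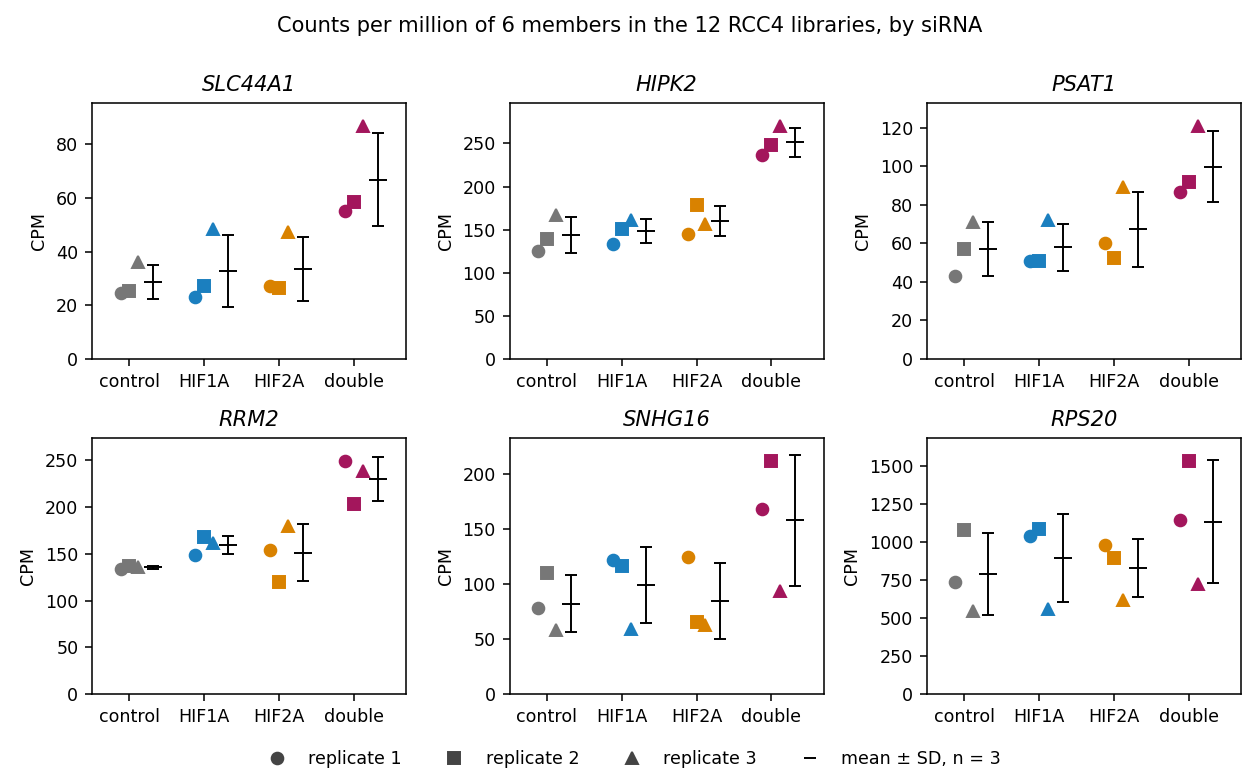
Levels of 6 of the 79 genes, in CPM on a linear axis, in the 3 libraries of each condition (control, HIF1A siRNA, HIF2A siRNA and double knockdown), with symbols for the replicate numbers and the mean and SD beside them. SLC44A1, HIPK2 and RRM2 stood above all other libraries in the double knockdown, whereas SNHG16 and RPS20 overlapped where replicate 3 was low in every condition, at 58.4 to 93.3 CPM for SNHG16.

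Signalling genes were the largest group, with 15 members, of which 4 had no overlap between the double knockdown and the other libraries (1.47% of the genes with the CPM minimum). PRKCA encodes protein kinase C alpha. For PRKCA, the control libraries held 65.4, 51.6 and 96.5 CPM, the HIF1A siRNA libraries 67.8, 65.0 and 119, the HIF2A siRNA libraries 54.4, 56.4 and 108 and the double knockdown libraries 103, 79.7 and 187. Replicate 3 was far above the other replicates in every condition, so the ranges overlapped although the paired ratios were 0.65, 0.62 and 0.95. SDC2, a heparan sulfate proteoglycan of the cell surface, showed no overlap, with 142, 159 and 94.9 CPM with control siRNA and 238, 243 and 211 in the double knockdown. Its single siRNA libraries of replicate 3 were also above the paired control, by 0.49 and 0.56 on the log2 scale. PLCB4, a phospholipase C, and ALPK2, an alpha kinase, were the most abundant, at 251 ± 46.3 and 290.1 ± 56.9 CPM with control siRNA (SD, n = 3). In the double knockdown they were at 381 ± 106 and 412 ± 59.9 CPM (SD, n = 3). TNFRSF10B, a receptor for the death ligand TRAIL, was at 117, 94.3 and 127 CPM with control siRNA and 163, 160.4 and 168 in the double knockdown, above all other libraries. The Rac-directed GTPase activator ARHGAP24 was scarce, at 3.30, 3.08 and 1.82 CPM with control siRNA and 5.99, 5.05 and 4.45 in the double knockdown. CRLF3, a cytokine receptor-like protein, had ratios of 0.69, 0.56 and 0.81. AGAP6, of a family of near-identical GTPase activators whose reads cannot be assigned with certainty, had ratios of 0.64, 0.62 and 0.57, but its HIF2A siRNA library of replicate 2 had a log2 ratio of -1.27 to the paired control. The others were the TGF-β family ligand GDF11 (0.66), the tensin TENC1 (0.62, now TNS2), the complement regulator CD46 (0.49), the kinases LMTK2 (0.48) and NUAK2 (0.47), the Toll-like receptor adaptor MYD88 (0.46) and TAB1 (0.46), the activator of the kinase TAK1.

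Enzymes of nucleotide and DNA metabolism were 3, and in each the double knockdown lay above all 9 other libraries, as it did for 1.47% of the genes with the CPM minimum. RRM2 is the small subunit of ribonucleotide reductase, which makes deoxynucleotides, and has processed copies that leave its counts uncertain. RRM2 was at 134, 137 and 136 CPM with control siRNA, 149, 169 and 161 after HIF1A siRNA, 155, 119 and 180.3 after HIF2A siRNA and 249, 204 and 239 in the double knockdown. The control libraries were nearly equal, and HIF2A siRNA had the widest spread of the single siRNAs. The mean log2 ratio of RRM2 was 0.76 ± 0.17 in the double knockdown (SD, n = 3). CMPK1, a kinase of pyrimidine monophosphates, was at 178 ± 12.3 CPM with control siRNA and 257 ± 18.8 in the double knockdown (SD, n = 3). The base excision repair endonuclease APEX1 had the smallest mean ratio of the 79 genes, 0.43 ± 0.035 (SD, n = 3), with little spread over the pairs.

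Genes of the lysosome and of protein quality control numbered 7. VCP, the ATPase that extracts ubiquitylated proteins, was the most abundant of them. The double knockdown libraries held 399.5, 328 and 529 CPM of VCP, against 265, 237 and 318 with control siRNA, 306, 284 and 354 with HIF1A siRNA and 296, 311 and 344 with HIF2A siRNA. Replicate 3 was high in every condition and the ranges overlapped, with a mean log2 ratio of 0.60 ± 0.13 (SD, n = 3). The lysosomal chloride exchanger CLCN7 had 0.52 in the double knockdown beside 0.21 and 0.21 with the single siRNAs, so that it exceeded their sum by 0.11. Mean log2 ratios of the others were 0.64 for the ubiquitin-conjugating enzyme UBE2E3, 0.60 for the ubiquitin ligase receptor DCAF4, 0.58 for the lysosomal potassium channel TMEM175, 0.58 for the co-chaperone DNAJC1 and 0.45 for the protease cathepsin C, CTSC. Cytoskeleton and membrane traffic genes numbered 8. TSPAN3, a tetraspanin, was the most abundant, at 175, 201 and 141 CPM with control siRNA and 259, 319.5 and 205 in the double knockdown, where replicate 3 fell within the range of the other conditions. TAGLN3, a calponin-like protein, was the least abundant of the 79 genes, at 1.53, 1.39 and 0.364 CPM with control siRNA and 2.20, 3.47 and 2.40 in the double knockdown, and its mean log2 ratio of 1.08 ± 0.66 (SD, n = 3) had the widest spread. The others were TUBD1 (0.68) and SCLT1 (0.57) of the centriole, SCAMP1 (0.67) of secretory vesicles, the coiled-coil protein MIPOL1 (0.67), the dynein adaptor BICD2 (0.52) and ARL6IP5 (0.47) of the endoplasmic reticulum.

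Ribosome and translation genes were 5, RNA processing and polymerase genes 4 and snoRNA host genes 3. RPS20, RPS4X and RPS29 are proteins of the small ribosomal subunit. In the order of the replicates, RPS20 was at 739, 1081 and 548 CPM with control siRNA, at 1043, 1083 and 559 with HIF1A siRNA, at 979, 895 and 616 with HIF2A siRNA and at 1146, 1531 and 724 in the double knockdown. Replicate 3 was the lowest in each condition and the ranges overlapped, while within each pair the double knockdown was above control siRNA (ratios 0.63, 0.50 and 0.40). RPS4X, the most abundant of the 79 genes, did not overlap, with 908, 1037 and 1033 CPM with control siRNA and 1361, 1579 and 1463 in the double knockdown. RPS29 had ratios of 0.67, 0.43 and 0.41. EIF3E, a subunit of an initiation factor, had ratios of 0.40, 0.51 and 0.44 and was the 1 gene whose 6 single siRNA ratios all lay within the limit of 0.25. THG1L, which adds a guanosine to histidine tRNA, had ratios of 0.58, 0.63 and 0.56. The RNA processing genes were the exonuclease DIS3L (0.50), MPHOSPH10 (0.48) of the U3 ribonucleoprotein, the splicing factor SRSF5 (0.46) and POLR2F (0.44), a subunit shared by the nuclear RNA polymerases. SNHG1, SNHG3 and SNHG16 are transcripts whose introns release small nucleolar RNAs, guides of ribosomal RNA modification. SNHG16 was at 77.9, 109.9 and 58.4 CPM with control siRNA, 122, 117 and 59.2 after HIF1A siRNA, 125, 65.9 and 63.2 after HIF2A siRNA and 169, 212 and 93.3 in the double knockdown. Replicate 3 was low in every condition, and HIF2A siRNA replicate 2 was at about the same level. The double knockdown libraries held 78.7, 109.6 and 39.2 CPM of SNHG3, against 37.1, 50.4 and 26.7 with control siRNA, 55.5, 52.2 and 25.4 with HIF1A siRNA and 56.0, 50.3 and 28.1 with HIF2A siRNA. For SNHG1, the control libraries held 104, 146 and 58.6 CPM, the HIF1A siRNA libraries 134, 145 and 68.4, the HIF2A siRNA libraries 132, 109 and 66.7 and the double knockdown libraries 161, 226 and 86.4. The mean log2 ratios were 0.91 ± 0.22, 0.91 ± 0.32 and 0.60 ± 0.042 for SNHG16, SNHG3 and SNHG1 (SD, n = 3). None of the 3 was free of overlap with the other libraries.

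The remaining 12 genes were 5 other non-coding RNAs and 7 genes whose role is little known. The non-coding RNAs were all at low or moderate level: MIR22HG, the precursor of the microRNA miR-22, was at 27.7 ± 9.17 CPM with control siRNA (SD, n = 3) and had a mean log2 ratio of 0.59. LINC00472 had ratios of 0.74, 0.59 and 0.86, and the other three were LOC202781 (0.65), TMEM198B (0.54) and LOC286437 (0.52), each under 10 CPM on average with control siRNA. LOC202781 replicate 3 of the double knockdown, at 4.84 CPM, lay under control siRNA replicates 1 and 2. The genes of little known role were TMEM65 (0.75), a protein of the inner mitochondrial membrane with ratios of 0.90, 0.61 and 0.73, TMEM68 (0.73), HDGFRP3 (0.67), TIGD1 (0.66), ASPHD1 (0.60), ANKRD44 (0.59) and ST7 (0.54). HDGFRP3, TMEM68 and ST7 were free of overlap.

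**Figure D2:**
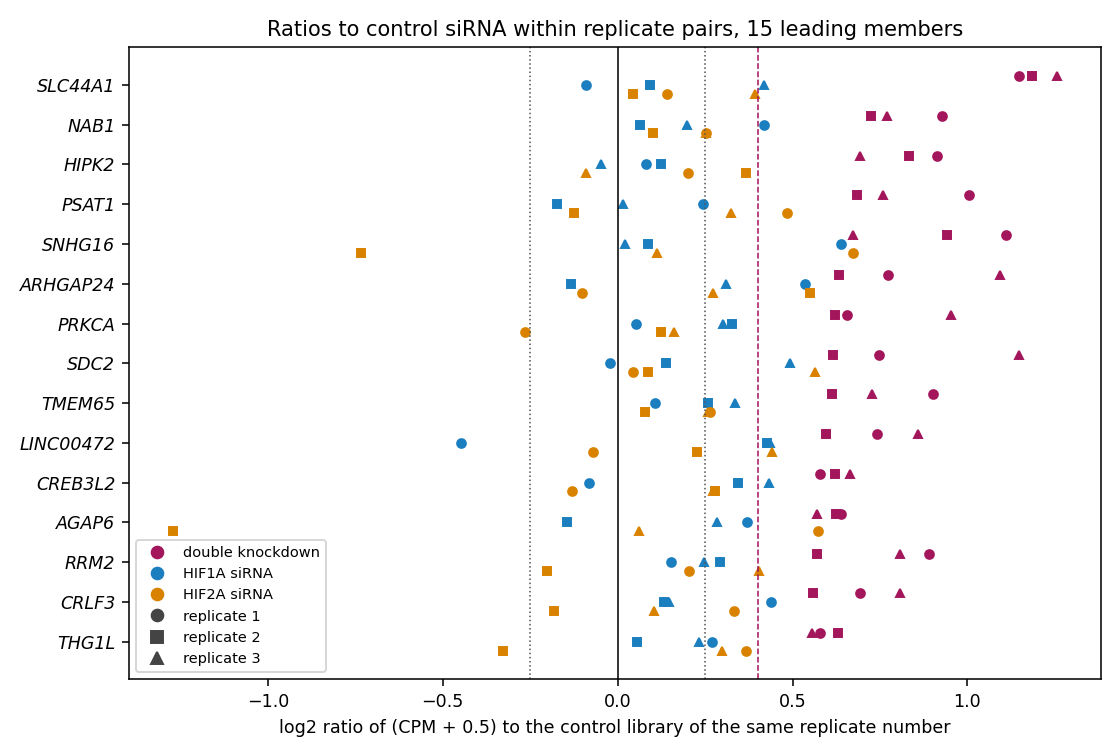
Log2 ratios of CPM + 0.5 to the control library of the same replicate number for the 15 genes with the largest smallest-of-3 ratio in the double knockdown (rows), with colours for the siRNA and symbols for the replicate, the limit of 0.4 dashed and the limits of -0.25 and 0.25 dotted. Double knockdown ratios lay between 0.56 and 1.26 by construction, while single siRNA ratios scattered on both sides of 0, down to -1.27 for AGAP6.

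At the limit on the double knockdown ratio and at the upper single siRNA limits, genes inside and outside had nearly equal values. On the smallest double knockdown ratio, RPS20 (0.4005) and TNFRSF10B (0.4011) were just inside and GAS5 (0.3989) and UPF3B (0.3987) just outside. On the HIF1A siRNA mean, SNHG16 (0.25) and RREB1 (0.24) were inside and KIAA0101 (0.26) and ZNF697 (0.26) outside. On the HIF2A siRNA mean, C19orf52 (0.246) and ARHGAP24 (0.241) were inside and NRG1 (0.252) and C11orf75 (0.254) outside. At the lower limits, TIGD1 (-0.15) and TMEM198B (-0.081) came nearest for HIF1A siRNA, with STON2 (-0.55) outside, and AGAP6 (-0.21) and TAGLN3 (-0.14) for HIF2A siRNA. On the level in the double knockdown, TAGLN3 (2.69 CPM) and MIPOL1 (4.18 CPM) were inside and SYNGR1 (1.97 CPM) and DSCAML1 (1.73 CPM) outside. The HIF1A siRNA limit alone kept out 114 genes, the HIF2A siRNA limit alone 55 and the CPM minimum alone 13.

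With a single siRNA, the means of the 79 genes lay within the limits of the rule, and their spread over the pairs is described here. The mean log2 ratio had a median of 0.18 with HIF1A siRNA, against 0.04 over the genes with the CPM minimum and the same 0.04 over the 7719 genes that met both single limits. With HIF2A siRNA the median was 0.13, against -0.00036 and -0.0021. By pair the medians were 0.23, 0.12 and 0.17 with HIF1A siRNA and 0.25, -0.063 and 0.21 with HIF2A siRNA in pairs 1, 2 and 3. These ratios and those of the double knockdown were taken over the same control libraries, so a control library that was low for a gene raised all 3. The limits were met by the means and not by each pair, since 70 of the 79 had at least 1 HIF1A siRNA ratio outside -0.25 to 0.25 and 68 at least 1 such HIF2A siRNA ratio. A ratio of at least 0.4, the limit for the double knockdown, was reached in at least 1 pair by 35 genes with HIF1A siRNA and by 38 with HIF2A siRNA. The median SD over the 3 pairs was 0.21 with HIF1A siRNA, 0.27 with HIF2A siRNA and 0.11 in the double knockdown, against 0.23, 0.28 and 0.19 over the genes with the CPM minimum. The rule itself favours a small spread in the double knockdown.

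Against the sum of the single siRNAs, the double knockdown was higher for 78 of the 79 genes, the exception being TAB1 (-0.0040). The difference, on the log2 scale, had a median of 0.32, against -0.0077 over the genes with the CPM minimum. The difference reached 1.04 for TAGLN3 and 0.87 for SLC44A1. It was 0.64 for SNHG16, 0.62 for SCAMP1, 0.60 for HIPK2 and 0.56 for PSAT1. By group the median was largest for snoRNA host genes (0.51) and transcription and chromatin regulators (0.45) and smallest for RNA processing genes (0.14) and for the lysosome and protein quality group (0.17). The rule used both sides of this difference, so it is a description. In the fit across genes, the interaction of the siRNAs was called higher than 0 by edgeR's quasi-likelihood test in 0 of the 79 genes after Benjamini-Hochberg adjustment at 0.05, and in 0.0% of all genes tested. At an unadjusted p under 0.05 it was so for 14 of the 79, where 0.885% of all genes tested were. The interaction combines the contrasts that chose the genes, so nothing is read from these counts. The estimates included SLC44A1 (0.88, standard error 0.17) and HIPK2 (0.61, standard error 0.15), on the log2 scale. Of the 13000 genes tested, DESeq2 called 1 higher in the interaction at an adjusted p under 0.05, SLC44A1. The other genes that passed in that fit were all lower, among them CA12 (-1.17) and SLC2A1 (-0.90), and none of them was chosen by the rule. At an unadjusted p under 0.05 DESeq2 called 13 of the 79 higher, where 0.892% of all genes tested were. Nothing is read from these counts either. The standard error of the interaction was 0.13 to 0.75 over the 79 genes, with a median of 0.19, beside their median difference of 0.32.

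**Figure D3:**
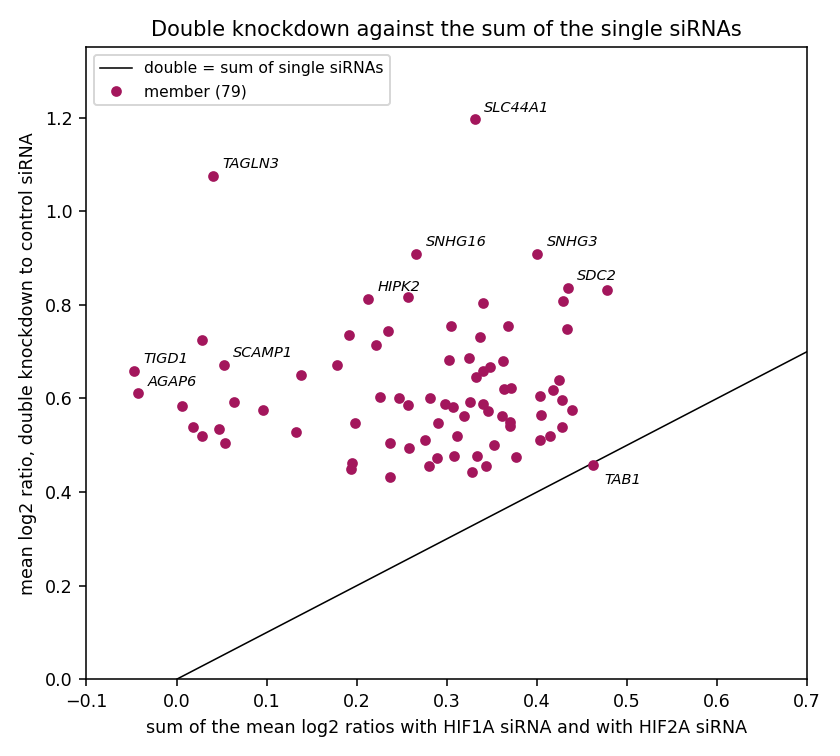
Mean log2 ratio of double knockdown to control siRNA (vertical axis) against the sum of the mean log2 ratios of HIF1A siRNA and HIF2A siRNA to control siRNA (horizontal axis), 1 point for each of the 79 genes, with a line where both are equal. All points but TAB1 lay above the line, by a median of 0.32, and SLC44A1 and TAGLN3 stood apart at the top.

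Compared with the single siRNAs directly, the double knockdown had a median log2 ratio of 0.43 to HIF1A siRNA and 0.48 to HIF2A siRNA, against -0.0025 and 0.04 over the genes with the CPM minimum. It was above HIF1A siRNA in all 3 pairs for 75 of the 79 genes (18.8% of the genes with the CPM minimum) and above HIF2A siRNA for 71 (24.4%). It was at least 0.4 above HIF1A siRNA in all 3 pairs for 16 (1.1%) and above HIF2A siRNA for 17 (1.25%). The rule holds the double knockdown at 0.4 or more and the mean of each single siRNA at 0.25 or less, so it fixes the mean direction of these differences, and nothing is read from these counts or from the calls that follow. The 10 genes that passed this for both siRNAs were HIPK2, ING5, NAB1, PSAT1, SCAMP1, SDC2, SLC16A7, SLC44A1, SNHG16 and SNHG3. All 3 double knockdown libraries were above the other 9 for 28 genes, where 1.47% of the genes with the CPM minimum were. By edgeR's quasi-likelihood test, 13 were called higher than with HIF1A siRNA (0.431% of all genes tested) and 22 higher than with HIF2A siRNA (0.785%), and without the pairing by replicate 0 and 0. The first count was 32 without HIF2A siRNA replicate 2, and 3 to 8 without control siRNA replicate 3, any HIF1A siRNA library, HIF2A siRNA replicate 3 or any double knockdown library. The second was 13, 14 and 13 without HIF1A siRNA replicates 1, 2 and 3, 14 and 8 without HIF2A siRNA replicates 2 and 3, and 3, 6 and 5 without double knockdown replicates 1, 2 and 3. With a single siRNA against control siRNA, 1 of the 79 was higher at an unadjusted p under 0.05 with HIF1A siRNA (3.08% of all genes tested) and 1 with HIF2A siRNA (3.03%), where the rule again limits the means.

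To see the same ratios in libraries that had not chosen the genes, the rule was applied to 2 replicate pairs and the third pair was read. With pair 1 left out, 137 genes were chosen and 99 of them (72.3%) had a double knockdown ratio of at least 0.4 in pair 1, against 18.1% of the genes with the CPM minimum. With pair 2 left out, 51 of 90 genes did (56.7%, against 12.7%), and with pair 3 left out, 81 of 164 (49.4%, against 13.8%). The median double knockdown ratio in the pair left out was 0.54, 0.47 and 0.40. The median single siRNA ratio in the same pair was 0.35, 0.25 and 0.16 with HIF1A siRNA and 0.37, 0.16 and 0.19 with HIF2A siRNA, where the pairs that chose the genes had 0.12, 0.17 and 0.14, and 0.060, 0.14 and 0.058. In the pair left out, these genes thus lay above control siRNA with either siRNA alone as well, by less than in the double knockdown, and all 3 ratios of a pair use 1 control library. Read against the single siRNA of the pair left out, which does not use its control library, the double knockdown was higher by a median of 0.24, 0.22 and 0.24 over HIF1A siRNA and 0.20, 0.31 and 0.20 over HIF2A siRNA. Over the genes with the CPM minimum these medians were 0.0031, -0.0082 and -0.0064, and 0.03, 0.04 and 0.04.

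**Figure D4:**
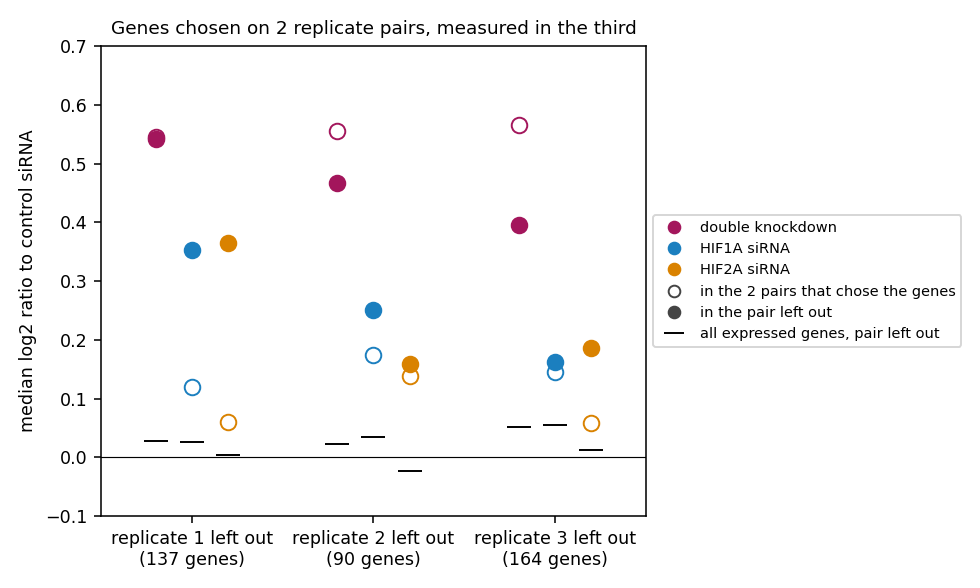
Median log2 ratio to control siRNA of genes chosen on 2 replicate pairs, read in those pairs (open circles) and in the pair left out (filled circles), for the double knockdown and each single siRNA, with the median of all genes with the CPM minimum in the pair left out (dashes). In the pair left out the double knockdown medians were 0.54, 0.47 and 0.40, and the single siRNA medians, 0.16 to 0.37, were above those in the pairs that chose the genes.

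Replicate 3 differed in level from replicates 1 and 2 for some of these genes. Averaged over the 4 conditions, its log2 levels were lower for 45 of the 79 genes (57.0%), against 50.01% of the genes with the CPM minimum. The lowest group medians of this difference were -0.97 for snoRNA host genes (3 of 3 lower), -0.68 for RNA processing genes (3 of 4) and -0.60 for ribosome genes (4 of 5). The exceptions in these groups were DIS3L and RPS4X. In the signalling group the median was 0.10, with PRKCA at 0.89, and SLC16A7 at 0.99 and SLC44A1 at 0.72 were among the highest. Over the 74 genes with a known transcript length, Spearman's rho between length and this difference was 0.51, and over the 10402 genes with the CPM minimum and a length it was 0.56, given as a description across genes that share the 12 libraries. The median transcript length was 3051 bases among the 79 genes and 3429 among genes with the CPM minimum, and the median GC content 48.3 and 47.7%. The part of length in the ratios was not tested. Where a trend with GC content and length was removed from each library, the counts of the 79 genes called higher than with HIF1A siRNA and HIF2A siRNA were 27 and 41. That fit called 952 of all genes higher than with control siRNA, against 502 without the removal. The shares of all genes called against the single siRNAs in that fit are not given here, so nothing is read from the 27 and 41.

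**Figure D5:**
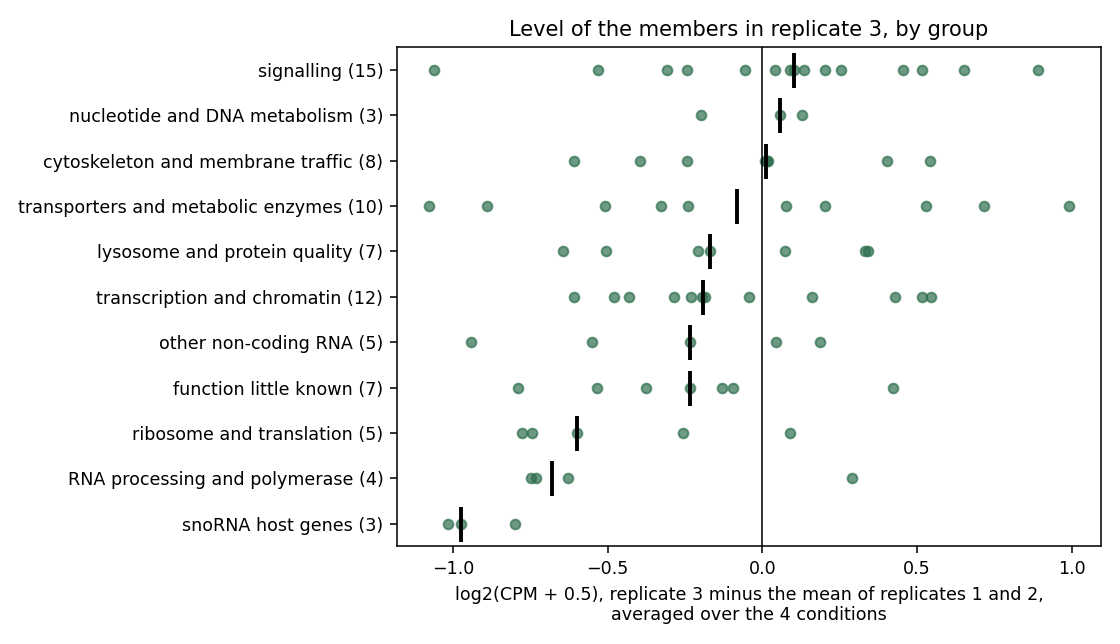
Difference between replicate 3 and the mean of replicates 1 and 2 in log2(CPM + 0.5), averaged over the 4 conditions (horizontal axis), for the 79 genes by functional group, with a bar at the median and the number of genes in brackets. The snoRNA host, RNA processing and ribosome groups had medians of -0.97, -0.68 and -0.60, and signalling genes one of 0.10.

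Of 77 cytosolic ribosomal protein genes with the CPM minimum, 74 were above control siRNA in all 3 double knockdown pairs (96.1%, against 30.8% of the genes with the CPM minimum). The 74 include RPS4X, RPS29 and RPS20, which the rule itself puts above control siRNA in each pair. Of the 74 that were not among the 79, 4 reached 0.4 in each pair, as did 3.71% of all genes with the CPM minimum. Over all 77, members included, the median mean log2 ratio was 0.40 in the double knockdown, 0.20 with HIF1A siRNA and 0.08 with HIF2A siRNA. All but 1 of the 77, RPS4X, were lower in replicate 3, against 50.01% of the genes with the CPM minimum. Processed copies of these genes are many, so their counts are uncertain. Of the 77 in the fit, edgeR's quasi-likelihood test called 17 higher and 0 lower (adjusted threshold 0.05), against 3.86% and 6.42% of all genes tested. The 17 include RPS4X, RPS29 and RPS20, which were chosen on this contrast. Those of smallest p that were not among the 79 were RPL13A (log2 fold change 0.59, standard error 0.12, adjusted p = 0.0059) and RPL34 (0.56, standard error 0.13, adjusted p = 0.011). The lowest p among genes below control siRNA belonged to RPL39L (-0.26, standard error 0.19, adjusted p = 0.42) and RPL41 (-0.053, standard error 0.14, adjusted p = 0.84), and neither passed. Of 14 SNHG genes including GAS5, 12 were above control siRNA in all 3 pairs, the 3 chosen ones included. Of the 11 that were not chosen, 2 reached 0.4 in each pair (3.71% of all genes with the CPM minimum), SNHG4 and SNHG8. SNHG4 was at 16.6, 8.40 and 8.63 CPM with control siRNA and 35.9, 27.4 and 15.3 in the double knockdown, and was left out for its single siRNA means of 0.36 and 0.37. SNHG8 was left out for its HIF2A siRNA mean of 0.35. SNHG12 had a mean log2 ratio of 0.019.

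Other gene lists with members were mixed. Genes were counted as risen or fallen where edgeR's quasi-likelihood test of double knockdown against control siRNA passed 0.05 after Benjamini-Hochberg adjustment. Of all genes tested, 3.86% rose and 6.42% fell by this test, and the list counts are given for reading beside these shares. Members among the risen genes were chosen on this contrast. Values in brackets are log2 fold changes with their standard errors. The median log2 fold change of all genes tested was 0.0048. Of 420 non-coding RNA genes 12 rose and 10 fell. This list held 7 of the 79, of which SNHG16, SNHG1 and SNHG3 rose, while LINC00472, MIR22HG, LOC202781 and LOC286437 did not pass. Outside the 79, those of smallest p were SNHG4 (1.16 ± 0.20, adjusted p = 0.0016) and SNHG8 (0.81 ± 0.15, adjusted p = 0.0029) upward and MIR210HG (-3.01 ± 0.26, adjusted p = 3.4e-06) and LOC100126784 (-0.73 ± 0.14, adjusted p = 0.0045) downward. Among 25 genes of the ATF4 and unfolded protein responses 2 rose, PSAT1 and ATF5, and 4 fell, led by TRIB3 (-1.40 ± 0.11, adjusted p = 1.1e-06) and EDEM1 (-0.77 ± 0.13, adjusted p = 0.0014). The next upward, XBP1 (0.17 ± 0.11, adjusted p = 0.36) and SESN2 (0.21 ± 0.14, adjusted p = 0.37), did not pass. Of 28 p53 target genes 2 rose, TNFRSF10B and PPM1D (0.64 ± 0.15, adjusted p = 0.013), and 3 fell, led by BTG2 (-0.88 ± 0.16, adjusted p = 0.0026) and CDKN1A (-0.44 ± 0.11, adjusted p = 0.024). GDF15 (0.62 ± 0.20, adjusted p = 0.062) did not pass. Of 46 replication and mitosis genes 3 rose, RRM2, E2F1 (0.44 ± 0.11, adjusted p = 0.02) and BIRC5 (0.32 ± 0.10, adjusted p = 0.049), and 1 fell, KIF11 (-0.48 ± 0.11, adjusted p = 0.013), while BUB1 (-0.38 ± 0.13, adjusted p = 0.08) did not pass. Of 32 lysosome and autophagy genes 1 rose, CLCN7, and 1 fell, SQSTM1 (-0.36 ± 0.11, adjusted p = 0.047). MCOLN1 (0.42 ± 0.15, adjusted p = 0.094), UVRAG (0.40 ± 0.15, adjusted p = 0.11) and WIPI1 (-0.45 ± 0.14, adjusted p = 0.062) did not pass. Of 471 zinc finger genes 7 rose and 5 fell, among them ZNF335 and, outside the 79, ZNF618 (1.08 ± 0.15, adjusted p = 0.00031) and ZNF367 (0.85 ± 0.16, adjusted p = 0.0029) upward and ZNF395 (-1.79 ± 0.11, adjusted p = 1.2e-07) and ZNF654 (-1.01 ± 0.16, adjusted p = 0.00079) downward.

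Of 38 classical HIF target genes 0 rose and 38 fell, with a median log2 fold change of -1.62 in the double knockdown, -0.90 with HIF1A siRNA and -0.071 with HIF2A siRNA. Of 19 components of the HIF pathway 1 rose and 6 fell. Of 53 interferon-stimulated genes 0 rose and 5 fell, and of 12 genes of the RNA interference machinery 0 rose and 0 fell. Of 80 oxidative phosphorylation subunits 4 rose and 0 fell (median 0.19), and of 75 mitochondrial ribosomal proteins 2 rose and 0 fell (median 0.22). Higher and lower counts were 1 and 0 of 18 histone genes, 1 and 3 of 21 NRF2 targets, 0 and 3 of 23 sterol synthesis genes, 2 and 4 of 21 epithelial junction and keratin genes, 1 and 9 of 28 mesenchymal and matrix genes and 0 and 2 of 15 renal tubule genes. Among markers of other cells they were 0 and 0 of 4 immune genes, 0 and 1 of 2 endothelial genes and 0 and 0 of 5 pericyte genes. Over all 22 lists 148 genes were called, 95 without control siRNA replicate 1 and 95 without replicate 3, 80, 86 and 97 without double knockdown replicates 1, 2 and 3, and 271 without HIF2A siRNA replicate 2.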

How the data were processed

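RNA from 12 RCC4 libraries (4 conditions, 3 replicates each) was analysed. Per the labels and the study's methods, the authors trimmed reads with Trim Galore 0.3.3, aligned them to hg19 with HISAT2 2.05, used Picard 2.0.1 to drop multi-mapping fragments, counted reads per UCSC gene with HTSeq 0.5.4p3 in its strict intersection mode, and deposited the raw counts. The use of strand in counting is not given in the sources used here, so overlapping genes are uncertain, as are genes with near-identical copies.

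CPM, ratios and the rule were computed from the counts, with 0.5 CPM added before log2. edgeR 4.0.16 (R 4.3.3) fitted all 12 libraries with TMM scaling, filterByExpr and the replicate number as a block, and p-values were adjusted by Benjamini-Hochberg over 13000 genes. The block follows the study's methods, which pair conditions by biological replicate. Correlations of deviations from the condition means were 0.0988 to 0.812 over 18 pairs of libraries with the same number and -0.724 to 0.528 over 36 with different numbers. Deviations from a mean cancel within a condition, so these ranges depend on each other, and the block does not rest on them. P-values measure the spread between these replicates of 1 cell line. The edgeR fit was also run on counts simulated from its own model. The outcome is not given here, so nothing is read from it.

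The members and the 22 gene lists were chosen with earlier results of these data known. Genes named with values were HIF1A and EPAS1, the 15 members with the highest smallest ratio, the 10 of highest level, members on gene lists, the members of smallest p in the interaction, genes beside each limit and, on lists with members, the other genes of smallest p. The other members are each given by their mean ratio. Families and members with no overlap between conditions were added after the values were seen. Alternatives were other scalings, pseudocounts, limits and filters, DESeq2 1.42.0, removal of a GC content and length trend (90.0% of tested genes had both), no block and leaving out libraries. The limits against each single siRNA, against all 9 other libraries and without each single siRNA library were chosen after seeing the data.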

Additional observations from a re-analysis of the deposited data

How the results depend on the processing

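The number of genes that met the rule was 220 with a double knockdown limit of 0.3 and 32 with 0.5, 13 with a single siRNA limit of 0.15 and 157 with 0.35, and 1 where each single ratio had to stay within the limit. It was 10 where the double knockdown also had to be 0.4 above each single siRNA and 28 where it had to be above all 9 other libraries. Without pairing, in place of the replicate block, 53 genes met the rule and 31 of them were among the 79. With a whole replicate or a single siRNA library left out, the number ran from 50 (without HIF2A siRNA replicate 2) to 164 (without replicate 3). Of the 79, 33 to 65 were kept. Control and double knockdown libraries were not left out singly for the rule. Under the other scalings, pseudocounts and CPM minimums it stayed within 1.5 times of 79. In the fit without the replicate block, 32 genes were higher in the double knockdown than with control siRNA, 3 of them members, 0 members were higher than with HIF1A siRNA, 0 than with HIF2A siRNA, and 43 list genes were called. DESeq2 gave 780 genes higher than with control siRNA, 1 member in the interaction, and 25 and 36 members higher than with HIF1A siRNA and HIF2A siRNA. With the GC content and length trend removed these were 952 genes and 27 and 41 members. With replicates or libraries left out, genes higher than with control siRNA numbered 54 (without replicate 3) to 995 (without HIF2A siRNA replicate 2), members among them 4 to 70, members higher than with HIF1A siRNA 1 to 32, members higher than with HIF2A siRNA 1 to 28, and list genes called 56 to 271, against 148. The cause was not tested. The rule limits the contrasts behind these counts of members. The shares of all genes called against the single siRNAs in these alternative fits are not given here, so nothing is read from the counts of members. For 34 named genes, all of them members, 714 alternative values of the log2 fold change of double knockdown to control siRNA were computed. Of these, 590 kept their side of the threshold, 107 lost the call, 17 gained it and 0 changed direction. The rule put each of these genes above control siRNA in every pair, so nothing is read from the lack of a change in direction.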
